A study of Mus musculus with 12 samples.

Results

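The genes described here are 10 markers of the brain's blood vessels, of the 24318 genes in a table of hippocampal expression. They were chosen by name as known markers, with earlier results of these data known. The endothelial genes are Cldn5, Flt1, Pecam1, Slco1a4, Abcb1a, Tek, Kdr and Cd34, and the pericyte genes are Pdgfrb and Rgs5. All 10 were found in the table and passed the filter on low values used here, a mean of at least 0.5 FPKM (fragment counts normalised for gene length and for sequencing depth). RNA came from the hippocampus of 7-month-old mice, in 3 libraries labelled 5xFAD and 3 labelled WT, all with the title prefix CG, which the labels do not spell out. 5xFAD mice carry human transgenes with mutations of familial Alzheimer's disease, APP among them, expressed in neurons from Thy1 promoter constructs. The strain of the WT mice and the sex of any mouse are not given by the labels. Whether each library is from a mouse of its own is not stated by the labels, so part of the spread behind each p-value may be technical.

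Endothelial cells line the vessels of the brain and form the blood-brain barrier, a sheet sealed by tight junctions and served by transporters that take in nutrients and pump out foreign compounds. Pericytes wrap the capillaries from the outside, within a shared basement membrane, and stabilise them. Vascular endothelial growth factor, angiopoietin and platelet-derived growth factor signals tie these cells together, with the receptors for them on the endothelium and on pericytes.

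Some libraries stand apart from the rest, and this touches the results below. Thy1 was at 1136, 1172 and 305 FPKM in the libraries labelled 5xFAD and at 296, 308 and 340 FPKM in WT. The library labelled 5xFAD replicate 3 thus stood at the WT level of Thy1, apart from the others of its label, and the fit between genotypes is given with and without it. Xist, the RNA of the inactive X chromosome, was at 0.136, 110 and 112 FPKM in 5xFAD and at 0.246, 104 and 99.9 FPKM in WT, while the Y-linked Ddx3y was at 16.2 FPKM in 5xFAD replicate 1 and 18.7 FPKM in WT replicate 1 and at 0 or 0.0204 FPKM elsewhere. Replicate 1 of each genotype thus had the transcripts of a male mouse and the other libraries those of female mice, so the libraries of a genotype do not all come from the same mouse. WT replicate 1 and, less so, the library labelled 5xFAD replicate 3 held more choroid plexus RNA. The summed FPKM of 7 choroid plexus genes was 59.1, 76.9 and 502 in 5xFAD and 2890, 46.2 and 70.4 in WT. Total FPKM ran from 385214 to 412157. Absolute depth is unknown. From the steps between low values, relative depth was 0.796 to 1.16, with WT replicate 1 set to 1.

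The levels of the genes, averaged over the 6 libraries, ran from 21.7 FPKM for Rgs5 and 14.5 FPKM for Cd34 down to 2.61 FPKM for Kdr and 2.23 FPKM for Tek. Between them came Cldn5 at 7.20, Slco1a4 at 7.04, Flt1 at 5.28, Pdgfrb at 5.17, Abcb1a at 4.48 and Pecam1 at 3.42 FPKM. Since FPKM is per length, these levels can be set side by side. Cd34 (lowest library 11.4 FPKM) and Cldn5 (highest library 8.92 FPKM) were the only neighbours in this order whose ranges over the libraries did not overlap. Summed, the 10 genes held 88.1, 68.4 and 66.5 FPKM in 5xFAD and 84.4, 68.6 and 65.9 FPKM in WT. A list of 6 neuronal genes held 1708 to 1851 FPKM in 5xFAD and 1799 to 1905 FPKM in WT. In RNA from whole tissue, fewer vessel cells and less RNA per vessel cell cannot be told apart.

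The upstream sequences of 3 genes are shown because Slco1a4 and Kdr had the largest ratios between the 5xFAD libraries below and Cd34 was the 1 gene with a ratio on the other side. RefSeq (GRCm38.p6) gave a sequence from 250 bases before to 50 bases after the start for 8 of the 10 genes, all but Pecam1 and Pdgfrb. Capitals mark the letters AGGAAG, or their reverse complement CTTCCT where the match is on the opposite strand. ETS factors, several of them active in endothelium, can bind this core.
Slco1a4, chr6:141856171-141856470, minus strand: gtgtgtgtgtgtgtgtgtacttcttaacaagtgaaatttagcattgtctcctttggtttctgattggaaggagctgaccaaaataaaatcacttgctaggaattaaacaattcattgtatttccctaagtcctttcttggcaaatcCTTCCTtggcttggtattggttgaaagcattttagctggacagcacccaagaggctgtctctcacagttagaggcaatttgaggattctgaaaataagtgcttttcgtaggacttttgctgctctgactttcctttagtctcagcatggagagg
Kdr, chr5:75978406-75978705, minus strand: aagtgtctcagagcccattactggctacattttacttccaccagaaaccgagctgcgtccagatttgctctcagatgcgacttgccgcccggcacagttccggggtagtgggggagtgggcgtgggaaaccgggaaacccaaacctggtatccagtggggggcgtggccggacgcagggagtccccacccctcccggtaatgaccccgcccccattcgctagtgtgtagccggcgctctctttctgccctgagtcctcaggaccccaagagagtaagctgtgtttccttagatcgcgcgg
Cd34, chr1:194938571-194938870, plus strand: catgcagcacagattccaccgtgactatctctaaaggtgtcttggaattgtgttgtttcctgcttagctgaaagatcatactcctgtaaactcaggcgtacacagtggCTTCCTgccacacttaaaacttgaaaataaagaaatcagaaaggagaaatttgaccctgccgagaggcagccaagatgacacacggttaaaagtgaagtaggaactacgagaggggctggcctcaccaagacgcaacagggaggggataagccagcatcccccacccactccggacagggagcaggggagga
The core was found in 4 of the 8 sequences (Abcb1a, Cd34, Flt1 and Slco1a4) and in 35.4% of all 32851 sequences of this length. The GC box, with the letters GGGCGG searched on both strands, was found in 3 of the 8 (Cldn5, Flt1 and Kdr) and in 35.7% of all. GC content was 40.7% for Slco1a4, 60.7% for Kdr and 50% for Cd34, beside a median of 52.7% over all sequences. The matches describe these windows and nothing more.

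The first comparison set 5xFAD replicate 1 beside 5xFAD replicate 2, the 2 libraries of that genotype with raised Thy1. Of the 10 genes, 9 were higher in replicate 1, beside 48.9% of all genes. Past 1.5-fold higher were 5 of the 10: Slco1a4, Kdr, Tek, Pecam1 and Flt1. These 5 are among the 8 endothelial genes of the 10. Over the 14500 genes tested, 5.31% were past 1.5-fold higher in replicate 1 and 6.40% past 1.5-fold lower. On the log2(FPKM + 1) scale the median difference was 0.46 over the 10 genes and -0.01 over all genes. Pecam1 and Flt1 lay just past the threshold, at ratios of 1.59 and 1.58, and Abcb1a just under it, at 1.41. With a threshold of 25% higher, 8 of the 10 were past it, beside 15.1% of all genes. These are values of 1 library against 1, with no test, and the pair was proposed with results of these data known.

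Among the transporters, Slco1a4, an organic anion carrier of the barrier, was at 9.39, 5.00 and 5.61 FPKM in 5xFAD and at 11.1, 5.96 and 5.19 FPKM in WT. Replicate 1 was the high library in both genotypes and the others lay close together. The ratio of replicate 1 to replicate 2 was 1.88 in 5xFAD and 1.86 in WT. Abcb1a, an efflux pump of foreign compounds, was at 5.68, 4.04 and 3.75 FPKM in 5xFAD and at 5.91, 4.19 and 3.32 FPKM in WT, again with replicate 1 on top in each genotype. Its ratio of replicate 1 to 2 was 1.41 in both genotypes. Abcb1b, a close copy that could share reads with it, was at 2.76, 1.78 and 1.32 FPKM in 5xFAD and at 1.49, 1.03 and 1.00 FPKM in WT.

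All 3 receptors of growth factors on endothelium were past 1.5-fold higher in 5xFAD replicate 1 than in replicate 2. Kdr, the main signalling receptor for vascular endothelial growth factor, was at 2.91, 1.59 and 2.45 FPKM in 5xFAD and at 3.38, 2.96 and 2.37 FPKM in WT. 5xFAD replicate 2 was the lowest of the 6 libraries, and the ratio of replicate 1 to 2 was 1.84 in 5xFAD and 1.14 in WT. Flt1, a receptor that binds the same factor tightly and signals weakly, was at 7.13, 4.51 and 4.02 FPKM in 5xFAD and at 5.97, 4.90 and 5.14 FPKM in WT. Here 5xFAD replicate 1 was above every WT library and the other 5xFAD libraries were below every one. Tek, the receptor for angiopoietins, was at 3.10, 1.74 and 1.53 FPKM in 5xFAD and at 2.80, 2.13 and 2.11 FPKM in WT, with the same arrangement. The ratio of replicate 1 to 2 was 1.58 for Flt1 and 1.78 for Tek in 5xFAD, and 1.22 and 1.31 in WT.

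Pecam1, an adhesion molecule at the contacts between endothelial cells, was at 4.01, 2.53 and 2.24 FPKM in 5xFAD and at 4.32, 3.39 and 4.04 FPKM in WT. 5xFAD replicate 2 was below every WT library, as was the library labelled 5xFAD replicate 3, and 5xFAD replicate 1 lay within the WT range. Cldn5, the main claudin of the tight junctions of the barrier, was at 8.92, 6.66 and 7.11 FPKM in 5xFAD and at 5.89, 6.83 and 7.81 FPKM in WT. It did not follow the transporters, since WT replicate 1 was the lowest of the 6 libraries and 5xFAD replicate 1 the highest. The ratio of replicate 1 to 2 was 1.34 in 5xFAD and 0.863 in WT.

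Neither pericyte gene was past 1.5-fold between 5xFAD replicates 1 and 2. Of 12 further pericyte genes, given below, 3 were past 1.5-fold higher in replicate 1. Rgs5, a regulator of G-protein signalling abundant in pericytes, was at 23.9, 17.9 and 19.4 FPKM in 5xFAD and at 28.2, 21.2 and 19.7 FPKM in WT. Replicate 1 was highest in each genotype, with a ratio to replicate 2 of 1.34 in 5xFAD and 1.33 in WT. Pdgfrb, the receptor through which endothelial platelet-derived growth factor recruits pericytes, was at 5.97, 5.25 and 5.35 FPKM in 5xFAD and at 5.54, 4.37 and 4.52 FPKM in WT. Its ratio of replicate 1 to 2 was 1.14 in 5xFAD and 1.27 in WT.

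Cd34, a sialomucin on the surface of endothelium, was the exception. It was at 17.1, 19.2 and 15.0 FPKM in 5xFAD and at 11.4, 12.6 and 11.7 FPKM in WT. Every 5xFAD library was above every WT library, as held for 2.92% of all genes tested. Replicate 1 was not the highest in either genotype. The ratio of replicate 1 to 2 was 0.891 in 5xFAD and 0.899 in WT.

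**Figure D1:**
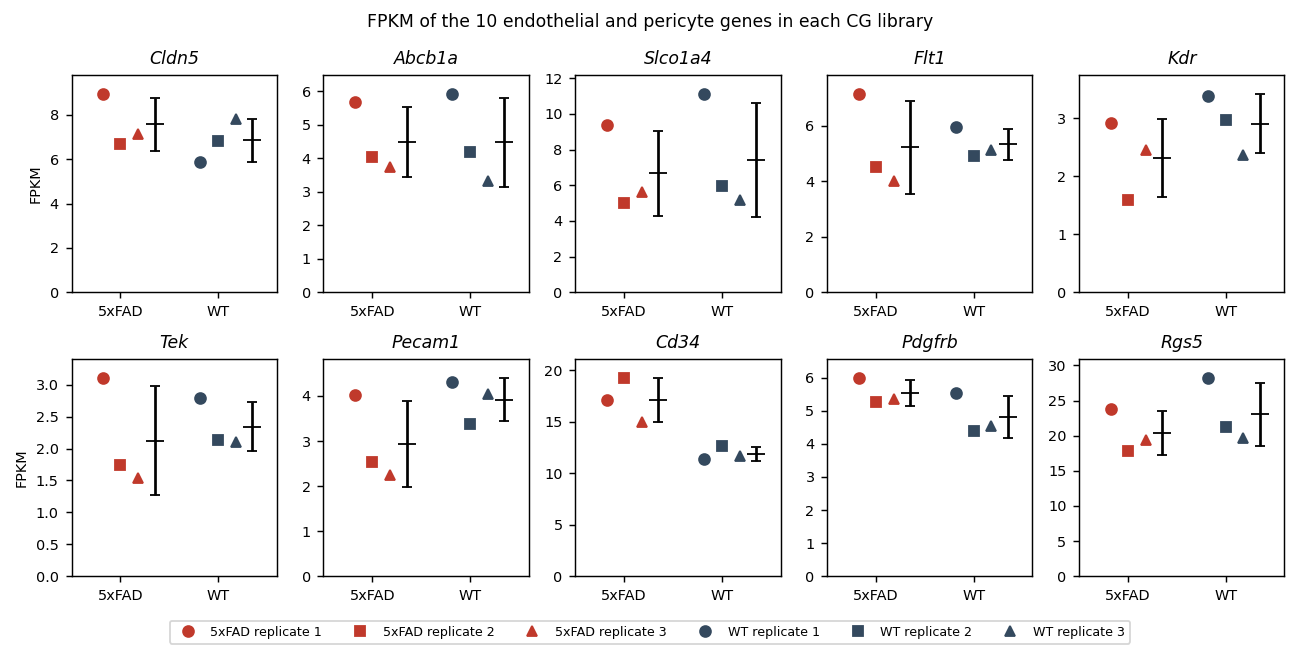
FPKM of the 10 genes in each CG library, with 5xFAD left of WT; each point is 1 library, its shape gives the replicate number, and the bar gives the mean and SD of 3 libraries. Replicate 1 is the highest of its genotype for most of the 10 genes. For Cd34 every 5xFAD library lies above every WT library, as holds for 2.92% of all genes tested.

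Replicate 1 was the highest library within both genotypes for 8 of the 10 genes, all but Cldn5 and Cd34, and over all genes tested this held for 23.6%. It was the lowest within both for none of the 10 and for 24.6% of all genes. Set beside the library labelled 5xFAD replicate 3, 5xFAD replicate 1 was higher for 10 of 10 (50.1% of all genes), with 5 past 1.5-fold higher (8.34% of all) and 0 lower (6.73% of all). WT replicate 1 was above WT replicate 2 for 8 of 10 (50.7% of all genes). Slco1a4 alone was past 1.5-fold higher there, beside 10.5% of all genes, and 0 were past 1.5-fold lower, beside 7.07%. Against WT replicate 3 it was likewise above for 8 of 10 (50.3% of all genes), with Slco1a4 and Abcb1a past 1.5-fold higher, beside 7.11% of all genes, and 0 lower, beside 4.95%. WT replicate 2 was above WT replicate 3 for 6 of 10, beside 51.6% of all genes. Between WT replicates 2 and 3 none of the 10 was past 1.5-fold either way, beside 4.19% of all genes higher and 6.13% lower in replicate 2. Whether the ratios in 5xFAD differ from those in WT was not tested. The number 1 libraries are also those with male transcripts, so sex, animal and library cannot be told apart. WT replicate 1 also held the most choroid plexus and fibroblast RNA of the 6 libraries. The part of that content in these counts was not tested.

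**Figure D2:**
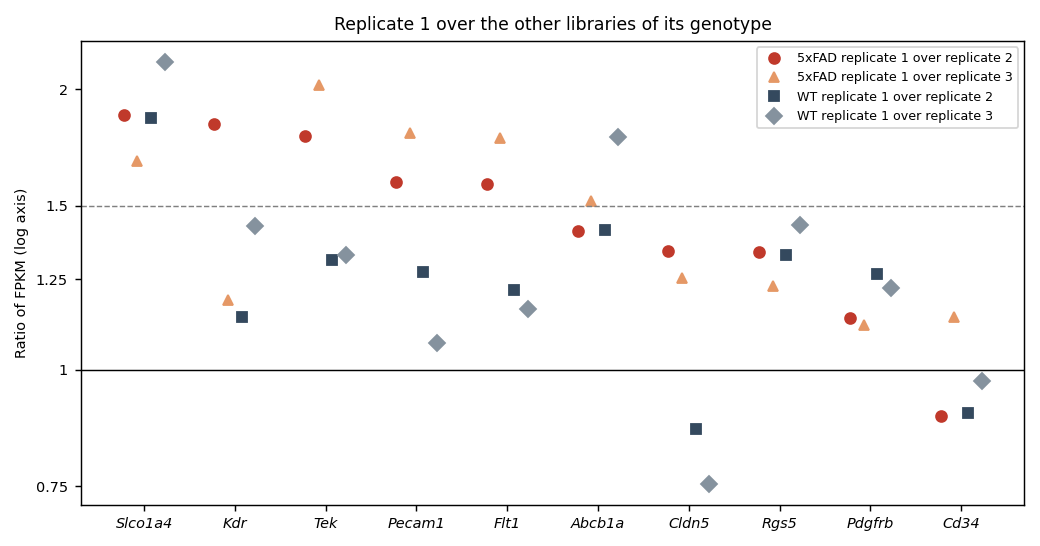
Ratio of FPKM (log axis) of replicate 1 to each other library of its genotype for the 10 genes, ordered by the ratio within 5xFAD replicates 1 and 2; the dashed line marks 1.5. Slco1a4 lies above 1.5 in all 4 pairs, Kdr, Tek, Pecam1 and Flt1 in 1 or both pairs of 5xFAD libraries and in no pair of WT libraries, and Cd34 near 1.

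Against the WT libraries, the 5xFAD libraries fell on different sides. 5xFAD replicate 1 was above every WT library for 5 of the 10 genes (Cldn5, Flt1, Tek, Pdgfrb and Cd34), beside 25.2% of all genes. 5xFAD replicate 2 was below every WT library for 6 of 10 (Flt1, Pecam1, Slco1a4, Tek, Kdr and Rgs5), beside 22.2% of all genes. The library labelled 5xFAD replicate 3 was below every WT library for 4 of 10 (Flt1, Pecam1, Tek and Rgs5), beside 17.2% of all genes. These 3 counts share the WT libraries.

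The second comparison asked whether the genes differed between 5xFAD and WT. In limma over the 6 libraries, on log2(FPKM + 1) with Benjamini-Hochberg adjustment over 14500 genes, none of the 10 was called. The background was 1 gene, or 0.00690% of those tested. It was Malat1, a nuclear long RNA listed at 0 in every 5xFAD library and at 3608, 3288 and 3425 FPKM in WT. The library at the WT level of Thy1 was at 0 as well. Whether both labels were quantified alike was not given, so this call may not be a difference between the mice. That limit holds for every comparison of the labels here. At a limma unadjusted p under 0.05 were 424 genes (2.92%). Of the 10 genes only Cd34 was at that level. Cd34 averaged 17.1 ± 2.09 FPKM in 5xFAD and 11.9 ± 0.665 FPKM in WT (SD, n = 3 each). Its log2 difference was 0.49 (SE 0.11, 95% interval 0.23 to 0.74), with a limma adjusted p of 1.00. Over all genes, 2.92% had every 5xFAD library above every WT library and 2.74% had every one below, where none of the 10 lay.

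The other 9 differences ran from -0.35 (SE 0.18) for Pecam1 to 0.17 (SE 0.12) for Pdgfrb on the log2 scale. Pecam1 averaged 2.93 ± 0.954 FPKM in 5xFAD and 3.91 ± 0.476 FPKM in WT (SD, n = 3 each), with a 95% interval of its log2 difference from -0.76 to 0.07. Kdr averaged 2.32 ± 0.673 FPKM in 5xFAD and 2.91 ± 0.507 FPKM in WT (SD, n = 3 each), with an interval from -0.67 to 0.17. Of the 10, Slco1a4 had the widest interval, from -0.78 to 0.55. In all, 4 of the 10 log2 differences were positive, with a median of -0.08, beside 6642 of 14500 positive and a median of -0.01 over all genes.

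Without the library labelled 5xFAD replicate 3, limma called 174 of 14527 genes, or 1.20% (1.18% higher and 0.0138% lower in 5xFAD), and again none of the 10. At an unadjusted p under 0.05 stood 5.91% of all genes. Cd34 came nearest, with a log2 difference of 0.57 (SE 0.12, 95% interval 0.30 to 0.84) and a limma adjusted p of 0.0954. With array quality weights in the same 5 libraries it passed (limma adjusted p = 0.0374), and over the other alternatives in those libraries its adjusted p ran from 0.0708 to 0.659. Pecam1 differed by -0.22 (SE 0.19), Kdr by -0.29 (SE 0.21) and Pdgfrb by 0.19 (SE 0.14), none past the test. The median over the 10 genes was 0.05, beside -0.02 over all genes.

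Markers of microglia moved with genotype in the libraries with raised Thy1, and their part in the Cd34 values was not tested. The summed FPKM of 7 microglial genes was 308, 311 and 118 in 5xFAD and 106, 128 and 115 in WT. Of the 7 genes, 5 were called higher in 5xFAD without the library labelled 5xFAD replicate 3, and 0 over the 6 libraries. In that library the microglial sum was within the WT range. Cd34 there, at 15.0 FPKM, was the lowest of the 5xFAD libraries and above every WT library.

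**Figure D3:**
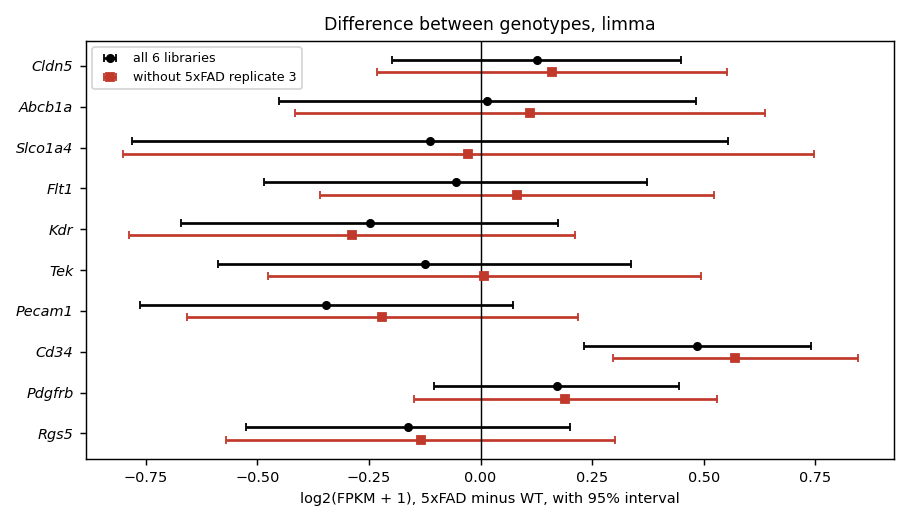
Difference of log2(FPKM + 1), 5xFAD minus WT, with its 95% interval from limma for each gene, over all 6 libraries (circles) and without the library labelled 5xFAD replicate 3 (squares). Every interval but that of Cd34 includes 0.

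Other vessel genes were read from fixed lists. Of 36 further endothelial genes 35 were tested. In 5xFAD replicate 1 over replicate 2, 29 of the 35 were higher, with a median ratio of 1.33, beside 48.9% higher over all genes, and 8 were past 1.5-fold higher and none past 1.5-fold lower, beside the 5.31% and 6.40% of all genes given above. Those 8 were Emcn, Esam, Ptprb, Tie1, Eng, Erg, Robo4 and Adgrf5, named after their values were seen. Emcn, an endothelial mucin, was at 3.43, 1.49 and 1.57 FPKM in 5xFAD and at 3.96, 1.18 and 1.74 FPKM in WT. Tjp1, a scaffold of tight junctions, did not follow, at 26.1, 28.4 and 29.4 FPKM in 5xFAD and at 25.9, 29.3 and 26.7 FPKM in WT. Bsg, a glycoprotein abundant on brain endothelium and present on other cells, was at 189, 181 and 175 FPKM in 5xFAD and at 253, 170 and 187 FPKM in WT. Replicate 1 was the highest within both genotypes for 16 of the 35, beside 23.6% of all genes.

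Genes of the vessel wall were mixed. Of 9 smooth muscle genes 6 were tested, and the others were under the filter on low values. Their median ratio of 5xFAD replicate 1 to replicate 2 was 1.77, beside 1.33 for the further endothelial genes. Of the 6 tested, 4 were higher in replicate 1, beside 48.9% of all genes. All 4 were past 1.5-fold higher (5.31% of all genes), and 1 gene was past 1.5-fold lower (6.40% of all). Myl9, a myosin light chain and the most abundant of them, was even in that pair, at 6.48, 6.55 and 4.57 FPKM in 5xFAD and at 7.72, 2.90 and 6.25 FPKM in WT. Acta2, the actin of smooth muscle, was at 3.83, 1.84 and 1.85 FPKM in 5xFAD and at 4.10, 2.12 and 2.24 FPKM in WT, with replicate 1 the high library in each genotype. Pln, a regulator of the calcium pump and the gene past 1.5-fold lower, had a ratio of 0.507.

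Of 12 further pericyte genes, 7 were higher in 5xFAD replicate 1 than in replicate 2, beside 48.9% of all genes. In that pair 3 were past 1.5-fold higher (5.31% of all genes) and 1 past 1.5-fold lower (6.40% of all). The 3 were Notch3, Atp13a5 and Higd1b, at ratios of 2.08, 1.78 and 1.69, named after their values were seen. Vtn, a matrix protein and the most abundant of them, ran from 26.6 to 28.7 FPKM in 5xFAD and from 22.7 to 29.2 FPKM in WT, with a ratio of replicate 1 to 2 of 1.07 in 5xFAD. Mcam, an adhesion molecule of mural and endothelial cells, was at 8.60, 6.79 and 5.86 FPKM in 5xFAD and at 7.07, 6.20 and 6.42 FPKM in WT. The gene past 1.5-fold lower was Zic1, a transcription factor, with a ratio of 0.591.

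Of 11 basement membrane genes, 8 were higher in 5xFAD replicate 1 than in replicate 2, beside 48.9% of all genes. In that pair 1 was past 1.5-fold higher (5.31% of all genes) and 0 past 1.5-fold lower (6.40% of all). Sparc, a matrix glycoprotein and the most abundant of them, was lower in replicate 1 than in replicate 2 of 5xFAD, at 80.3, 89.6 and 68.8 FPKM in 5xFAD and at 65.7, 68.8 and 70.0 FPKM in WT. Col4a2, a chain of the collagen of that membrane, was at 17.0, 12.6 and 13.2 FPKM in 5xFAD and at 14.7, 12.8 and 14.2 FPKM in WT.

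Ligands and other receptors of these pathways had lower median ratios than the endothelial list, a difference that was not tested. The receptor list shares Tie1 and Eng with the endothelial list, both past 1.5-fold higher in 5xFAD replicate 1 than in replicate 2. Of 13 ligand genes, 9 were higher in 5xFAD replicate 1 than in replicate 2, with a median ratio of 1.14. Of 12 receptors tested 8 were, with a median ratio of 1.16, beside 48.9% of all genes higher. Vegfb, a ligand of Flt1 and the most abundant of the ligands, was at 26.5, 30.5 and 26.4 FPKM in 5xFAD and at 29.2, 26.5 and 29.8 FPKM in WT. Vegfa, the ligand of Kdr and Flt1, was at 18.1, 15.9 and 18.9 FPKM in 5xFAD and at 23.4, 21.5 and 17.0 FPKM in WT. S1pr1, a receptor for sphingosine 1-phosphate and the most abundant of the receptors, was at 31.8, 47.1 and 44.8 FPKM in 5xFAD and at 35.7, 50.7 and 42.5 FPKM in WT, with replicate 1 the low library in each genotype. Nrp1, a co-receptor for vascular endothelial growth factor, was at 33.6, 28.0 and 32.3 FPKM in 5xFAD and at 29.6, 32.1 and 37.9 FPKM in WT.

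Between genotypes, no gene of these vessel lists passed limma over the 6 libraries. At a limma unadjusted p under 0.05 stood 1 of 35 endothelial, 1 of 13 ligand and 1 of 12 receptor genes, beside 2.92% of all genes. Without the library labelled 5xFAD replicate 3, 1 of 35 endothelial, 1 of 13 ligand and 1 of 12 receptor genes was called. All were higher in 5xFAD, beside 1.18% of all genes called higher. Fli1, an ETS factor of endothelium and blood cells, was at 4.15, 4.13 and 1.83 FPKM in 5xFAD and at 1.48, 1.84 and 1.78 FPKM in WT, with a log2 difference of 0.93 (SE 0.14) and a limma adjusted p of 0.0284. Tgfb1, a growth factor made by many cells including microglia, was at 6.04, 4.83 and 1.97 FPKM in 5xFAD and at 1.89, 2.33 and 1.68 FPKM in WT, and rose by 1.12 (SE 0.16, limma adjusted p = 0.0237). Tgfbr2, a receptor for it, was at 9.94, 10.5 and 4.26 FPKM in 5xFAD and at 3.99, 4.09 and 3.66 FPKM in WT, and rose by 1.19 (SE 0.12, limma adjusted p = 0.00493). All 3 were high in the same libraries as the microglial sum and near the WT level in the library labelled 5xFAD replicate 3, and the part of microglia in these values was not tested. Icam1, an adhesion molecule that inflamed endothelium displays, was at 2.13, 1.23 and 0.645 FPKM in 5xFAD and at 0.807, 0.391 and 0.441 FPKM in WT, and did not pass (log2 difference 0.78, SE 0.21, limma adjusted p = 0.262 in the 5 libraries). Vcam1, a similar molecule, differed by -0.01 (SE 0.22) there. Sele, the selectin of inflamed endothelium, was listed at 0 in all 6 libraries.

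**Figure D4:**
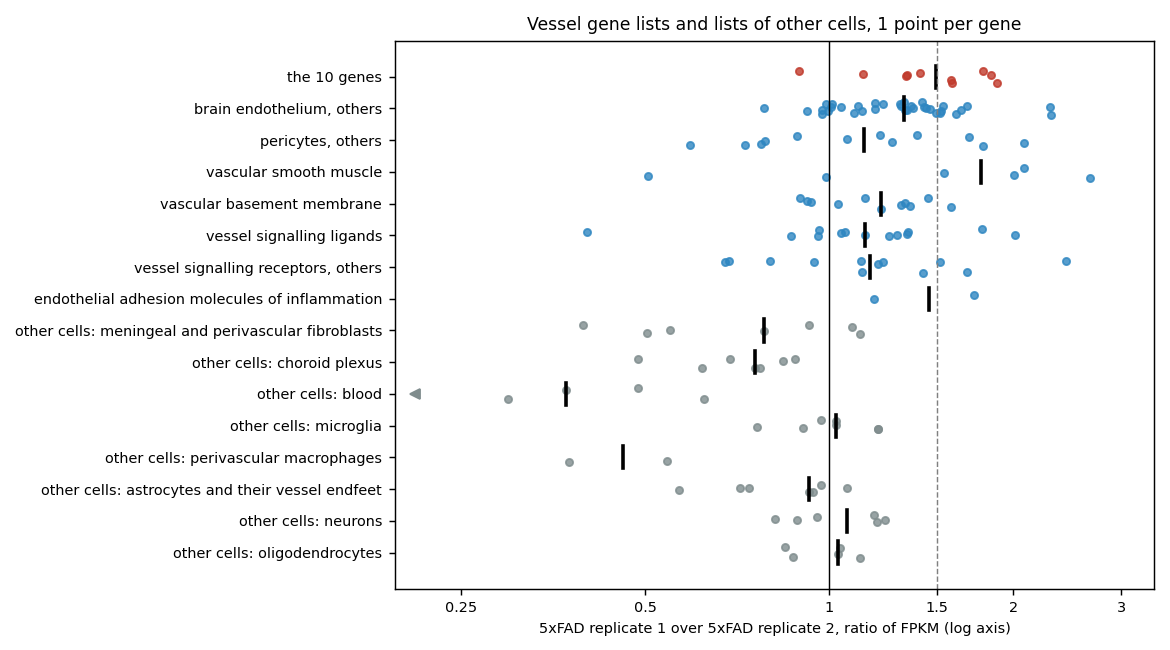
Ratio of FPKM in 5xFAD replicate 1 to replicate 2 (log axis) for each tested gene of the fixed lists with values above 0 in both; black bars are medians, the dashed line marks 1.5, and the arrowhead is a blood gene beyond the axis. The vessel lists (red and blue) have medians above 1, as do the neuron (1.07), oligodendrocyte (1.03) and microglia (1.03) lists. The fibroblast, choroid plexus, blood, perivascular macrophage and astrocyte lists have medians below 1.

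Markers of other cells were set beside the split between 5xFAD replicates 1 and 2. In that pair 48.9% of all genes were higher in replicate 1, 5.31% past 1.5-fold higher and 6.40% past 1.5-fold lower. Blood genes ran the other way: 5 of 5 tested were past 1.5-fold lower in 5xFAD replicate 1, and the summed FPKM of the list of 6 was 114, 345 and 235 in 5xFAD and 125, 186 and 223 in WT, with replicate 1 lowest in each genotype. Fibroblast genes summed to 32.5, 35.9 and 67.1 FPKM in 5xFAD and to 97.9, 43.1 and 42.3 FPKM in WT, and of the 7 genes 2 were higher in 5xFAD replicate 1 than in replicate 2, with 0 past 1.5-fold higher and 3 past 1.5-fold lower (Col1a1, Col1a2 and Col3a1). Choroid plexus genes were lower in 5xFAD replicate 1 than in replicate 2 for 7 of 7. In WT replicate 1 their sum and that of the 10 vessel genes were both the highest of that genotype. Microglial sums were 308 and 311 FPKM in 5xFAD replicates 1 and 2. Of 4 perivascular macrophage genes 2 were tested and both were past 1.5-fold lower in 5xFAD replicate 1 than in replicate 2. Of 5 oligodendrocyte genes none was past 1.5-fold either way in that pair. Astrocyte genes summed to 877, 1137 and 1050 FPKM in 5xFAD and to 827, 1148 and 958 FPKM in WT, with replicate 1 lowest in each genotype. The part of blood content, fibroblasts, choroid plexus, macrophages, astrocytes or sex in the vessel values was not tested. Among these lists and without the library labelled 5xFAD replicate 3, limma called Dcn, a proteoglycan of fibroblasts, lower in 5xFAD, beside the microglial genes given above.

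**Figure D5:**
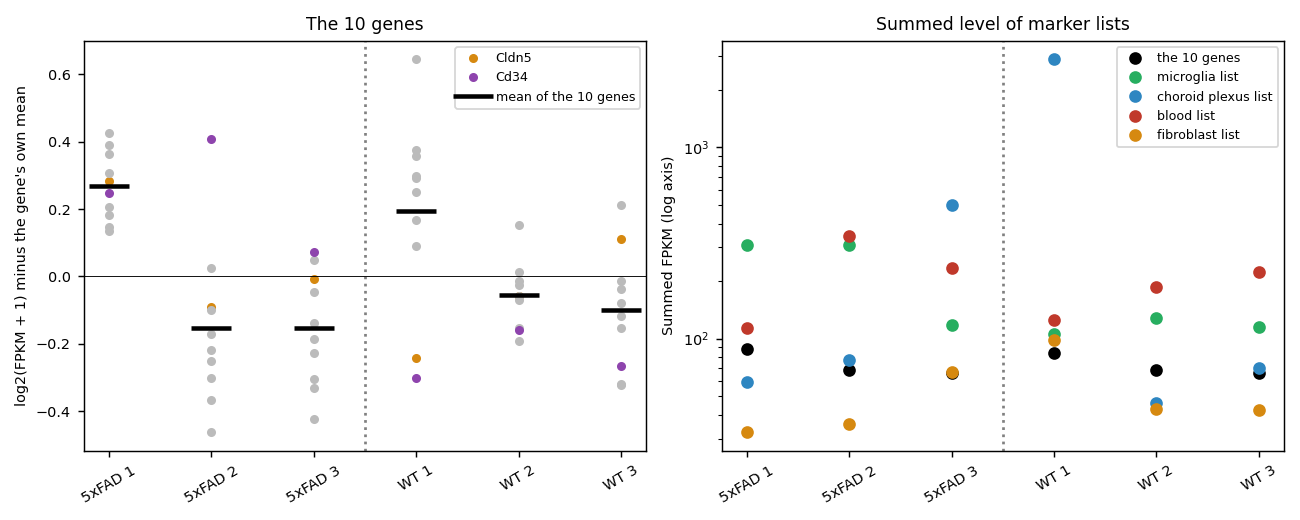
Left, log2(FPKM + 1) of each of the 10 genes minus its own mean over the 6 CG libraries, with their mean as a black bar; right, summed FPKM (log axis) of the 10 genes and of marker lists for other cells. The mean of the 10 genes is above 0 in both replicate 1 libraries and below 0 in the other 4, while the blood sum is lowest in those 2 libraries and the choroid plexus sum is highest in WT replicate 1.

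Averaged over the 10 genes, log2(FPKM + 1) minus each gene's own mean was 0.27, -0.15 and -0.15 in 5xFAD and 0.19, -0.06 and -0.10 in WT. By the root mean square difference over the 6 libraries, Cd34 lay farthest from the mean of the other members, at 0.37. Slco1a4 followed at 0.26, Cldn5 at 0.23 and Pecam1 at 0.21. Flt1 and Tek lay nearest, at 0.097 and 0.10. Of 12043 other genes with a mean of at least 2 FPKM, the 5 closest to the members' mean were Ctdp1, Mina, Cacna1d, Csmd2 and Exosc10, at 0.031 to 0.034, beside a median of 0.21. None of these 5 is in the vessel lists. Among the members, Cd34, Slco1a4 and Cldn5 lay farther from the mean of the others than that median of 0.21. Cacna1d, a calcium channel subunit, had centred values of 0.26, -0.13 and -0.15 in 5xFAD and 0.25, -0.09 and -0.13 in WT.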

How the data were processed

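Expression was read from 1 table of 6 hippocampal libraries. Its values are FPKM per gene as deposited by the authors. The submitters' processing notes name mm9 as build and DESeq as a tool. The aligner, the quantifier, the annotation and any use of strand were not given in the sources used here. A table of back-splice intervals from 6 other libraries, whose signal values, log2 ratios and p-values were deposited by the authors, served only to look up which genes have an interval and from which signal level intervals are listed.

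The FPKM were tested with limma 3.58.1 in R 4.3.3, with a mean trend on log2(FPKM + 1), which understates changes of low genes. Genes with a mean of at least 0.5 FPKM were tested, two-sided, with Benjamini-Hochberg adjustment over all of them and calls at an adjusted p under 0.05. Pairs of single libraries were compared by ratio, with 1.5-fold as the threshold and no test. Named genes are the 10 members, Thy1, and genes drawn from up to 4 per list, the 2 most abundant and the 2 with the smallest p. The genes most like the members are the 5 with the smallest root mean square difference. Genes named otherwise were chosen after their values were seen. The members and the 15 lists were chosen with earlier results of these data known. Alternatives were the pseudocount, the filter, the trend, the scaling, array weights, the replicate block and leaving out each library. Sequences are from RefSeq.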

Additional observations from a re-analysis of the deposited data

How the results depend on the processing

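None of the 10 genes was called over the 6 libraries under any of the alternatives run (0 in each, 0 without each library in turn). The count over all genes was 1 under every alternative except without the library labelled 5xFAD replicate 3, where it was 174, so it ran from 1 to 174 with a library left out. In the 5 libraries that remained, leaving out 1 more, an alternative added after the data were seen, gave 35 to 174 calls over all genes, of which 35 was without 5xFAD replicate 1, 52 without 5xFAD replicate 2, 84 without WT replicate 3 and 106 without WT replicate 2, and 0 among the 10. Where that left 1 library in 5xFAD, it was assumed to vary like WT. Array quality weights called 1 of the 10 there, Cd34. With a threshold of 25% higher in place of 1.5-fold, 8 of the 10 genes were past it in 5xFAD replicate 1 over replicate 2, beside 15.1% of all genes, and with quantile normalization, median-of-ratios scaling or a pseudocount of 0.1 it stayed at 5. Of 80 differences of single genes under alternatives that kept all libraries, 77 had the same direction. The other 3 were Cldn5 (-0.0678) and Slco1a4 (0.0224) with array quality weights and Abcb1a (-0.0164) with quantile normalization. With 1 library left out, 9 of 60 changed sign: the log2 difference ran from -0.27 to 0.0824 for Flt1, from -0.35 to 0.18 for Slco1a4, from -0.14 to 0.20 for Abcb1a and from -0.34 to 0.0087 for Tek. The cause was not tested.

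Same-numbered libraries deviated together with correlations of 0.42, 0.28 and 0.04 across genes, and the library labelled 5xFAD replicate 3 correlated best with WT replicate 2, so the numbers were not taken to pair the samples. With the replicate block the count was 1 over the 6 libraries and 201 without the library labelled 5xFAD replicate 3, with 0 of the 10 genes called in either. Genes of a few FPKM rest on fewer reads, and without the absolute depth their counting error cannot be given.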

Other observations

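The table of 7025 back-splice intervals from the 6 libraries with the prefix AT held none in the 10 genes. Of 98 genes in the vessel lists, 4 had 1 interval each: Atp13a5, of pericytes, Col4a2, of the basement membrane, Tgfbr2 and Tjp1. The share of all genes with an interval was not counted. Whether vessel genes have fewer intervals than other genes can therefore not be read from these counts. Intervals are listed there only where the signal reached at least 2.03 in all 3 libraries of 1 genotype or the other, so lower ones were not analysed here.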
